A study of Mus musculus with 2 samples.

Results

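The Hox genes encode homeodomain transcription factors that give cells their place along the head-to-tail axis of the embryo. In the mouse they stand in 4 clusters, Hoxa, Hoxb, Hoxc and Hoxd, on chromosomes 6, 11, 15 and 2. The genes examined here are 38 listed Hox genes of 21938 protein-coding genes: 10 in Hoxa, 10 in Hoxb, 9 in Hoxc and 9 in Hoxd. Each cluster was followed from the first to the last base of its listed genes in GENCODE M21, with 200 kb to each side as its flanks. The 4 clusters together span 485 kb and their flanks 1600 kb. The rule itself uses gene names and positions and no measured value.

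Within a cluster the genes are transcribed in a single direction and are numbered by paralog group, so that genes of equal number in different clusters descend from a single ancestral gene. Low-numbered (anterior) genes sit at the 3′ end of the cluster and act near the head, and high-numbered (posterior) genes sit at the 5′ end and act near the tail. In the kidney, paralogs of group 11 act with PAX2 and EYA1 in the early metanephric mesenchyme, and several other Hox genes are expressed in the ureteric bud and the stroma. Transcription of a cluster is tied to loss of Polycomb repression and to insulator sites bound by CTCF.

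DNase-seq was done on whole kidney tissue of newborn mice (postnatal, 0 days) of the strain B6NCrl, with no treatment or mutation, in 1 group of 2 biological replicates. DNase I cuts DNA that is free of nucleosomes, and a peak of cuts marks accessible chromatin. Both replicates carry the same donor record and sex was not collected, so their spread may be technical only, and no test between groups exists. Replicate 1 held 266133 peaks and replicate 2 held 257133, each with the authors' own signal value, and sequencing depth is unknown. Where a pair of values is given, it is that of replicate 1 and then of replicate 2. A signal is set per peak, and the sources used here do not give its scaling. Promoters of kidney markers had peaks in both replicates, with Six2 at 72.9 and 72.4 and Wt1 at 121 and 110, while those of Alb, Myh4 and Ins2 had none in either. Weak peaks of other lineages were present too, at Neurod1 (12.7 and 12.6) and Spi1 (14.05 and 11.84), and the adrenal gene Star had 39.8 and 40.5.

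The sequences that recur between the clusters are shown before the values. A start of transcription that lies 5′ of the group 6 position was accessible in all 4 clusters: between Hoxa7 and Hoxa6, between Hoxb7 and Hoxb6, between Hoxc8 and Hoxc6, and between Hoxd8 and Hoxd4. GENCODE assigns these starts to long transcripts of Hoxa3, Hoxb6, Hoxc6 and, together, Hoxd3 and Hoxd4. The peak there had a signal of 169 and 175 in Hoxa, 143 and 156 in Hoxb, 141 and 163 in Hoxc and 129 and 126 in Hoxd. Sequence is described for the Hoxa, Hoxc and Hoxd starts only, and nothing is said here of the letters of the Hoxb start. A single run of 11 bases, GAAAATTTACA, was common to those 3 peaks on the transcribed strand. In each of these it was followed by ATTGG and, 11 bases later, by CATGTG. These 3 peaks are given 5′ to 3′ on the transcribed strand (mm10, sequence from the RefSeq copy of GRCm38.p6), with the common run, ATTGG and CATGTG in capitals.

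Upstream start of Hoxa3, chr6:52213361-52213510, − strand: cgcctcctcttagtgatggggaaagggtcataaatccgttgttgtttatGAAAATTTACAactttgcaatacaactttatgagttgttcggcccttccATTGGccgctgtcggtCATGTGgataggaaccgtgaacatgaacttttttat
Upstream start of Hoxc6, chr15:102998061-102998210, + strand: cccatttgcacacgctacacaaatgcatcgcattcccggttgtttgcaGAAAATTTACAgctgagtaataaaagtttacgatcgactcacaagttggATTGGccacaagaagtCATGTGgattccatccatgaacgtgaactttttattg
Upstream start of Hoxd3 and Hoxd4, chr2:74711761-74711910, + strand: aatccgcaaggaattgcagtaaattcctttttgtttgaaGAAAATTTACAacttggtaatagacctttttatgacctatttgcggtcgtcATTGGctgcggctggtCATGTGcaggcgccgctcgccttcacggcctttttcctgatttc

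Between the Hoxa and Hoxd starts the longest exact run was 15 bases, and between the Hoxc and Hoxd starts it was 12 bases. The starts lay 4.02 kb 3′ of the Hoxa7 start, 5.77 kb 3′ of the Hoxb7 start, 7.53 kb 3′ of the Hoxc8 start and 6.68 kb 3′ of the Hoxd8 start. The 3 peaks had a G+C content of 42% in Hoxa, 41.3% in Hoxc and 44.7% in Hoxd. Their shared position and sequence are a description, and they were singled out after the sequences had been seen.

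The strongest promoter peaks of 37 members with a peak in at least 1 replicate were 35 distinct intervals. Among 37 comparisons of paralogs, the longest exact run on the transcribed strand had a median of 8 bases, and it reached at least 12 bases in 4. Among 558 comparisons of other members the median was 7 bases, and the run reached at least 12 bases in 6. The comparison of the Hoxc6 and Hoxd3 upstream starts was among those 6: their gene numbers differ although their places in the cluster correspond.

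The arrangement of ATTGG, a gap of 9 to 12 bases and CANNTG recurred beyond these starts. It was present on the transcribed strand in 12 of the 35 peaks, among them those of Hoxa3, Hoxa4, Hoxa6, Hoxa7, Hoxb4, Hoxc6, Hoxd1, Hoxd10 and the Hoxd3 and Hoxd4 start, and on the other strand at Hoxa9. ATTGG is the reverse complement of CCAAT, read by NF-Y, and CANNTG is the E-box read by helix-loop-helix factors. Searched on both strands in the central 150 bp, it occurred in 19 of 142 promoter sites inside the clusters (13.4%), 2 of 52 promoter sites in the flanks (3.85%) and 232 of 46681 promoter sites of the whole genome (0.497%). At sites away from promoters it occurred in 1 of 119 inside (0.840%), 3 of 228 in the flanks (1.32%) and 659 of 151068 in the genome (0.436%). The arrangement was noticed in these peaks, so the shares describe them and do not test it, and a match of letters is not evidence of binding.

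Among runs holding all 4 bases, the longest between accessible sites of different clusters was 28 bases, and it stood at corresponding places. It was picked as the longest from 25299 pairs of sites inside the clusters. Such runs of at least 14 bases were shared by 19 pairs. In 8 of these the nearest members of both sites were of the same paralog group. The site in Hoxa lay 2.89 kb before the Hoxa3 start codon and had signals of 102 and 112. The site in Hoxb lay 3.04 kb before the Hoxb3 start codon and had signals of 110 and 111. Both are given on the transcribed strand with the run in capitals.

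Site upstream of the Hoxa3 coding exons, chr6:52175461-52175610, − strand: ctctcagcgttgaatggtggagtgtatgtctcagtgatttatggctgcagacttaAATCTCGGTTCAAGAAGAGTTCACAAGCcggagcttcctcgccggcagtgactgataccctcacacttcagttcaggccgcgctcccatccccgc
Site upstream of the Hoxb3 coding exons, chr11:96341131-96341280, + strand: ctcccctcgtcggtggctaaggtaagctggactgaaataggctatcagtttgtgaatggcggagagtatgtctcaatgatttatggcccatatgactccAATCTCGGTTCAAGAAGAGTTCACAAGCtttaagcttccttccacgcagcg

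Of 38 members, 35 had a promoter peak in replicate 1 and 37 in replicate 2, and 35 had a peak in both. A promoter peak is any peak that overlaps the 1 kb to each side of an annotated start of transcription. Over all protein-coding genes the shares were 72.8% in replicate 1, 72.9% in replicate 2 and 71.8% in both. Counting only the annotated start nearest upstream of the start codon, 35 members had a peak in both replicates, against 64% of all genes. By promoter CpG content, described below, 15 members fell in the highest quintile of genes and 9 in the next. With every start counted, 98.9% and 97.6% of all genes in these quintiles had a peak in both replicates. It was 84.2% and 54.4% in the quintiles of the other 12 and 2 members. The count of members therefore cannot be read against the share of all genes alone. These data are from whole tissue, so fewer cells with an open site and a weaker opening in each cell cannot be told apart.

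**Figure D1:**
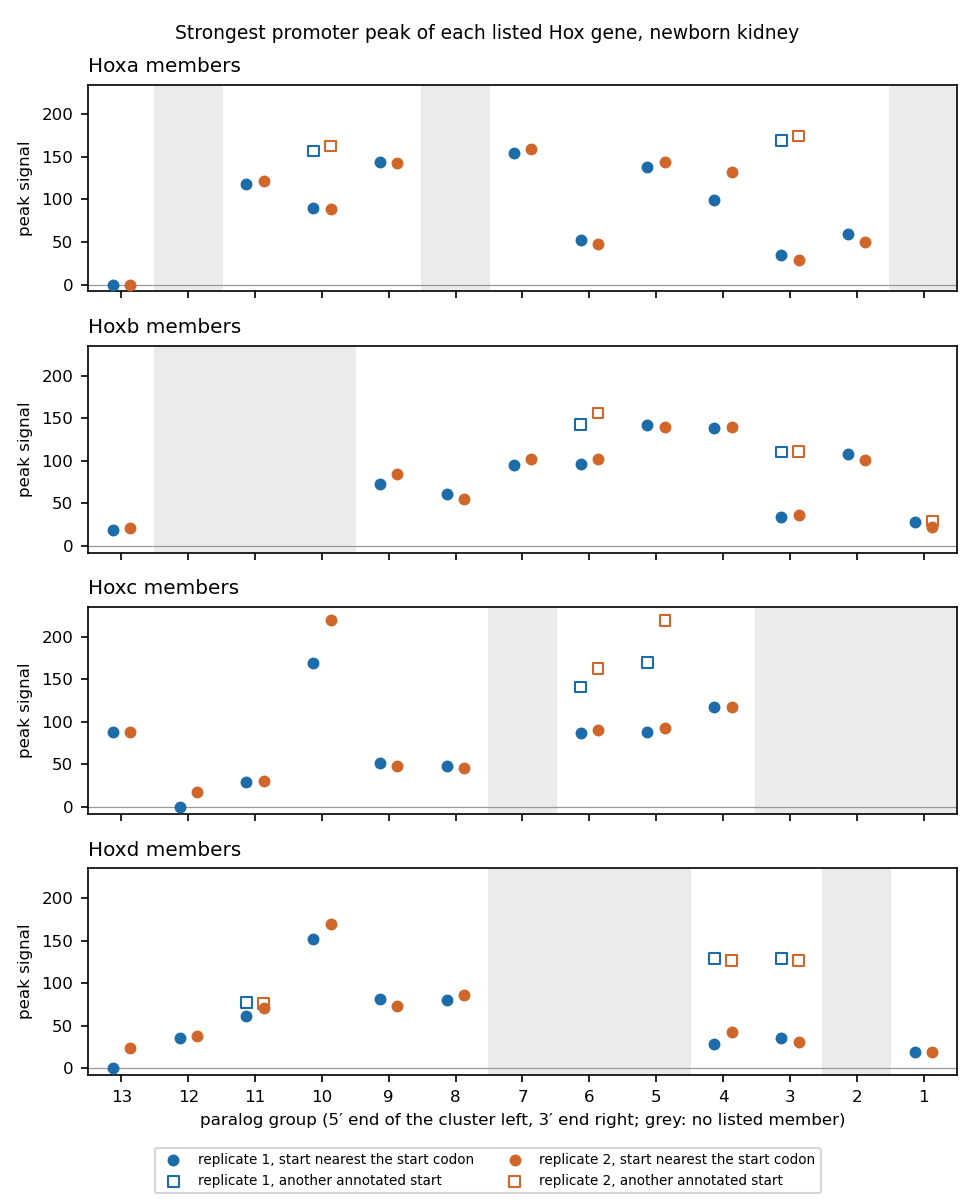
Signal of the strongest promoter peak (y axis, the authors' units, 0 where there is no peak) of each listed Hox gene by paralog group (x axis), with a panel for each cluster. Filled points are the start nearest the start codon and open squares a stronger peak at another annotated start, in blue for replicate 1 and orange for replicate 2. Signal is low at the ends, in groups 13, 12 and 1, with the exception of Hoxc13, and Hoxc10 stands highest among the filled points.

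In the Hoxa cluster the values ranged from no peak to 160 at the start nearest the start codon. Hoxa2, needed for the second pharyngeal arch, had 59.9 and 49.9, and Hoxa3, needed for the thymus and parathyroid, had 35.0 and 28.9. The upstream start of Hoxa3 shown above had 169 and 175. The site 2.89 kb before the Hoxa3 start codon, with 102 and 112, lies 8320 bp from the start counted here. The low value of Hoxa3 therefore holds for that annotated start only. Hoxa4 had 99.2 and 133, a wider difference between replicates than at any other Hoxa member. Hoxa5, which acts in lung and airway development, had 138 and 144, and Hoxa7 had 154 and 160. Hoxa6, between them, had 51.9 and 47.9. Towards the 5′ end, Hoxa9 had 145 and 143, Hoxa10 had 90.4 and 88.8, and Hoxa11, a group 11 gene of the metanephric mesenchyme, had 118 and 122. Hoxa13, which patterns the autopod and the genital tubercle, had no peak in either replicate. The profile therefore ended abruptly between Hoxa11 and Hoxa13 in both replicates. Hoxa10 also has an annotated start 5′ of its own, where the peak reached 157 and 163.

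Across Hoxb the levels at the start nearest the start codon were highest in the middle. Hoxb4 had 138 and 140 and Hoxb5 had 142 and 140, and at these starts both replicates placed them above the 8 other Hoxb members. Hoxb6 had 96.2 and 102 there, and 143 and 156 at its upstream start, above Hoxb4 and Hoxb5 in both replicates. Hoxb7, whose promoter is used to drive transgenes in the ureteric bud and collecting duct, had 95.5 and 102. Hoxb2 had 107 and 101. Hoxb9, at 72.9 and 84.7, and Hoxb8, at 61.4 and 55.1, were lower. Hoxb3 had 33.9 and 36.1 at the start nearest the start codon, and 110 and 111 at the upstream start whose sequence is shown above. The lowest values were at the ends of the cluster: Hoxb1, a hindbrain gene, had 28.5 and 22.5, and Hoxb13, a gene of the tail bud and prostate, had 18.6 and 20.5.

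Hoxc held the highest and some of the lowest promoters side by side. Hoxc10 had 169 and 219, the highest of all members in each replicate at the start nearest the start codon. Its neighbour Hoxc11 had 29.4 and 30.2, although it belongs to the same paralog group as Hoxa11. Next to it, Hoxc12 had no peak in replicate 1 and 17.8 in replicate 2. Hoxc13, a gene of hair and nail, broke the decline with 88.2 and 87.9. On the 3′ side of Hoxc10, Hoxc9 had 51.4 and 48.0 and Hoxc8 had 48.6 and 46.4. Hoxc6 had 87.4 and 90.7, Hoxc5 had 88.6 and 92.8, and Hoxc4 had 117 and 117. An annotated start of Hoxc5 lies at the Hoxc10 promoter, so counting every start gives Hoxc5 the Hoxc10 peak.

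In Hoxd the profile peaked at Hoxd10, with 152 and 169. Hoxd9 had 81.1 and 73.1 and Hoxd8 had 79.7 and 85.9. Hoxd11, the other group 11 gene known for kidney development together with Hoxa11, had 61.5 and 71.1, and Hoxd12 had 35.8 and 38.2. Hoxd13, which patterns digits, had no peak in replicate 1 and 24.3 in replicate 2. The 3′ members were low at their own starts, with 28.6 and 42.9 at Hoxd4, 35.9 and 30.7 at Hoxd3 and 19.1 and 18.8 at Hoxd1. The shared upstream start of Hoxd3 and Hoxd4 had 129 and 126.

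Group 10 was therefore the highest paralog group, with a median of 152 and 169 over Hoxa10, Hoxc10 and Hoxd10. Group 1 had a median of 23.8 and 20.7 over 2 genes, group 12 had 17.9 and 28.0 over 2 genes, and group 13 had 9.30 and 22.4 over 4 genes. The 3 members of group 11 did not share a level, since Hoxa11 stood above Hoxd11 and Hoxd11 above Hoxc11 in both replicates. In the order of levels many neighbours could not be separated, since the replicate ranges of Hoxb7 and Hoxb6 overlapped, as did those of Hoxc5, Hoxc6 and Hoxa10.

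Relative to all protein-coding genes of the same replicate, the median promoter percentile was 75.8 and 72.9 for the 15 central members (groups 4 to 8), 68.5 and 63.0 for the 7 anterior members (groups 1 to 3) and 56.2 and 54.7 for the 16 posterior members (groups 9 to 13). Counting only the start nearest the start codon, an alternative chosen after the annotation had been compared with the peaks, these medians became 70.02 and 69.38, 50.3 and 48.2, and 61.0 and 61.4. Central members stood highest either way, and the order of anterior and posterior members depended on which starts were counted. By cluster, with every start counted, the median percentile was 75.4 and 74.4 in Hoxa, 66.3 and 63.2 in Hoxb, 61.2 and 58.9 in Hoxc and 58.1 and 55.1 in Hoxd. With only the start nearest the start codon it was 69.8 and 70.3, 66.4 and 66.9, 67.3 and 65.5, and 50.6 and 52.8. Hoxa stood highest and Hoxd lowest either way, and the order of Hoxb and Hoxc then differed between replicates.

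The missing peaks were at promoters rich in CpG. All 38 members and all protein-coding genes were placed in quintiles of the observed over expected CpG content of the 500 bp to each side of the start nearest the start codon. Hoxa13 (0.945), Hoxd13 (0.905) and Hoxc12 (0.891) fell in the highest quintile. Of the 4388 genes of that quintile, 98.9% had a promoter peak in both replicates and 31, or 0.706%, had none in either. Of the 15 members in it, 4 lay above the quintile's median signal in both replicates and 11 below it in both, the median being 79.7 and 85.9 for the members and 121 and 134 for all genes of the quintile. In the second-highest quintile 2 of 9 members lay above and 7 below in both replicates. The median there was 81.1 and 73.1 for the members and 108 and 118 for all its genes. In the middle quintile 7 of 12 members lay above and 5 below in both replicates, and the median was 69.4 and 69.4 for the members and 42.4 and 44.9 for all its genes. The 2 members of the quintile below it lay above its median. Of all 38 members, 15 lay above and 23 below in both replicates.

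**Figure D2:**
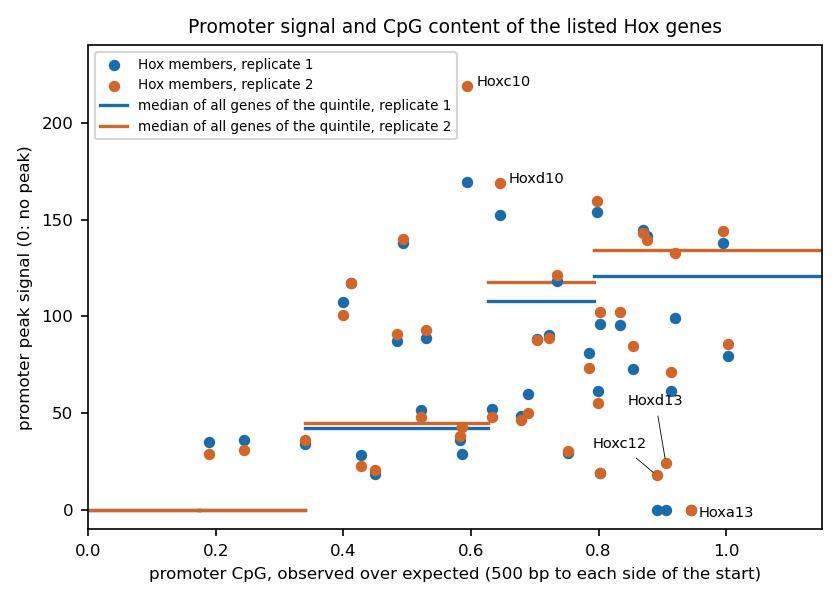
Promoter peak signal at the start nearest the start codon (y axis, the authors' units) against the observed over expected CpG content of the 500 bp to each side (x axis) for the 38 Hox members, blue for replicate 1 and orange for replicate 2. Horizontal lines are the medians of all protein-coding genes in each CpG quintile. Hoxa13, Hoxd13 and Hoxc12 lie at or near 0 at the right, where the medians of all genes are 121 and 134, and Hoxc10 and Hoxd10 lie above the medians of their quintiles.

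Accessible sites were dense in the clusters as a whole. Inside the 4 clusters there were 318 and 333 peaks, or 0.656 and 0.687 per kb, against 406 and 374 peaks in the flanks, or 0.254 and 0.234 per kb, and 0.0976 and 0.0943 per kb over the genome. The peaks inside were also stronger, with a median signal of 40.5 and 39.5, against 18.0 and 18.4 in the flanks and 17.1 and 16.9 in the genome. Of the peaks inside, 82.7% and 79.3% overlapped a peak of the other replicate, against 69.2% and 75.1% in the flanks and 74.7% and 77.3% over the genome.

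Weak peaks were scarce inside. A signal below 20 was found for 6.92% and 8.41% of peaks inside, against 54.7% and 56.4% in the flanks and 58.1% and 58.9% in the genome. Hoxa had no such peak among 77 and 75, and its lowest peaks had signals of 24.4 and 21.8, while 61.9% and 60.4% of the peaks in its flanks were below 20.

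**Figure D3:**
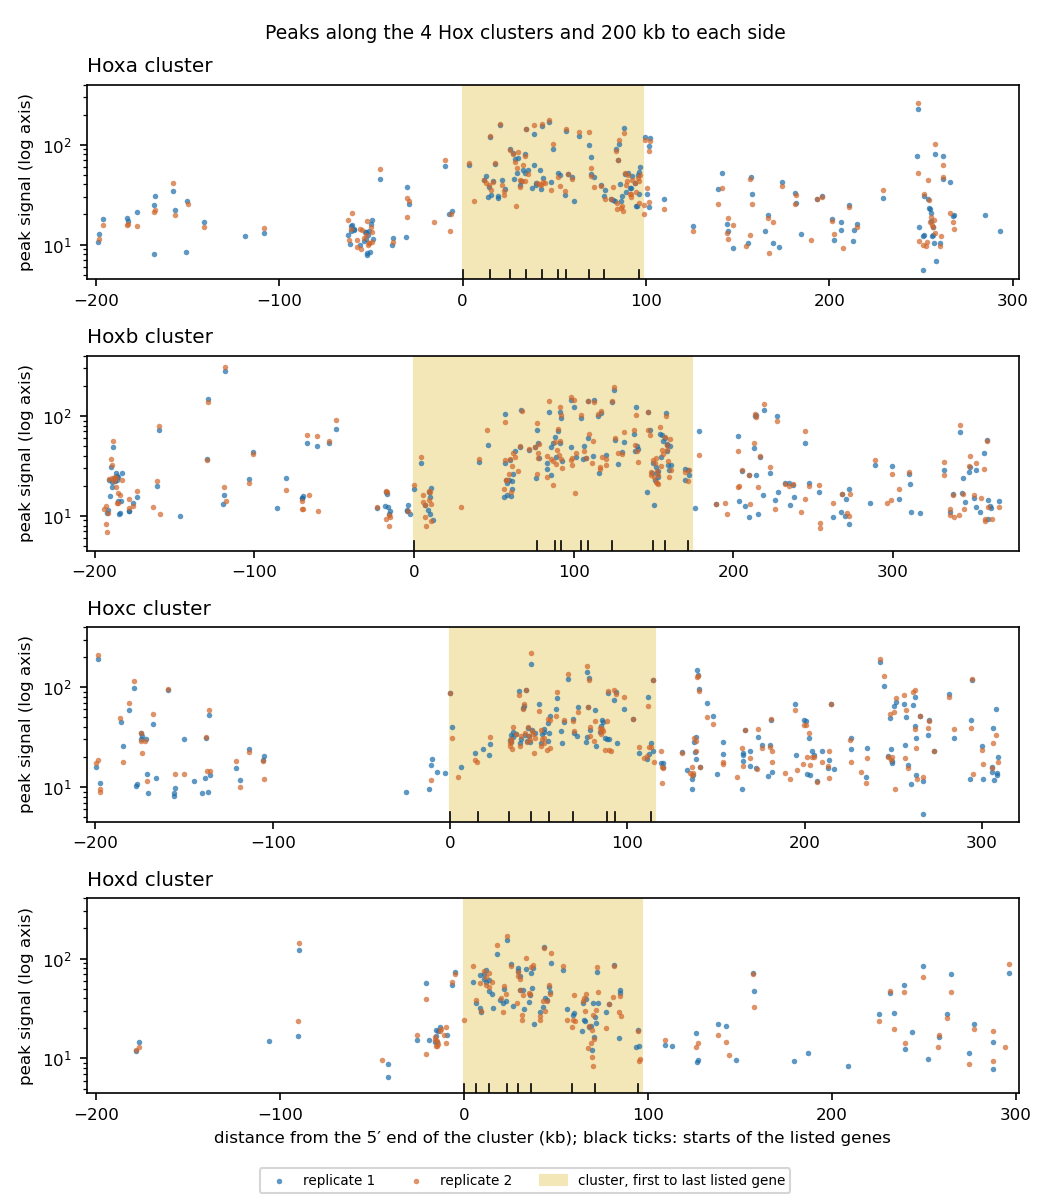
Every peak in the 4 clusters and their flanks by distance from the 5′ end of the cluster in kb (x axis) and signal (y axis, log axis), blue for replicate 1 and orange for replicate 2. The shaded band is the cluster and black ticks mark the listed genes' starts nearest the start codon. Inside the bands few points lie below 20, while 54.7% and 56.4% of the flank peaks of the 4 clusters do (45.2% and 47.5% at Hoxc), and the left part of the Hoxb band holds wide spaces without a peak.

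The contrast with the flanks differed by cluster. Peaks per kb inside over flanks gave a ratio of 5.94 and 6.52 for Hoxd (mean 6.23 ± 0.410, SD, n = 2), 2.98 and 3.17 for Hoxa (3.08 ± 0.138), 1.93 and 2.26 for Hoxb (2.09 ± 0.234) and 1.87 and 2.17 for Hoxc (2.02 ± 0.211). The clusters themselves were alike, between 0.569 peaks per kb in Hoxb, replicate 1, and 0.782 in Hoxa, replicate 1. The flanks ranged more widely, and Hoxd stood apart by its sparse flanks, with 19 and 21 peaks in the 200 kb on the 5′ side and 29 and 24 on the 3′ side. Hoxc had the densest flank, with 94 and 89 peaks on its 3′ side, and 41 and 29 on its 5′ side. In each cluster the 3′ flank held more peaks than the 5′ flank in both replicates.

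Without the peaks in promoter windows the ratio stayed above 1 in 3 clusters, at 2.46 and 3.04 for Hoxd, 1.36 and 1.57 for Hoxb and 1.29 and 1.53 for Hoxc. For Hoxa it was 0.739 and 1.03, from 0.162 and 0.203 distal peaks per kb inside and 0.220 and 0.198 per kb in its flanks. These densities divide by the whole length of a region, promoter windows included. Such windows take up more of the length where starts are dense, which lowers the distal density there. In Hoxa 49 of 63 shared sites inside were promoter sites, against 12 of 67 in its flanks. Density per kb of sequence outside promoter windows was not computed, so a lack of distal excess in Hoxa cannot be read from these ratios. The signal of distal peaks was higher inside than outside even so, with a median of 45.9 and 40.6 inside Hoxa, and of 37.9 and 37.8 inside all 4 clusters, against 16.7 and 17.1 in the flanks and 15.9 and 15.6 over the genome. Of 261 sites shared by both replicates inside the clusters, 142 were promoter sites (54.4%), against 52 of 280 in the flanks (18.6%).

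**Figure D4:**
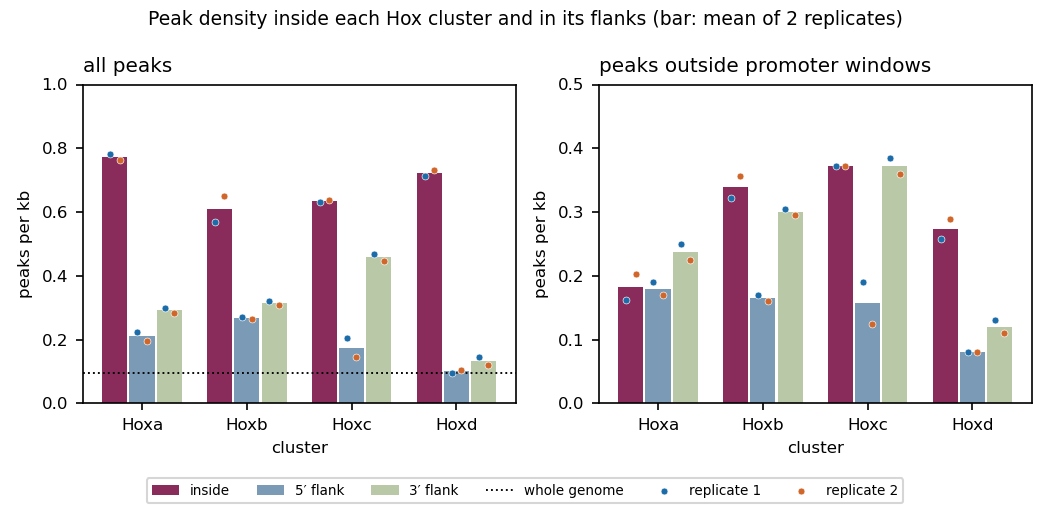
Peaks per kb (y axis) inside each Hox cluster, in its 5′ flank and in its 3′ flank of 200 kb each (x axis), for all peaks on the left and for peaks outside promoter windows on the right. Bars are means of 2 replicates, points are the replicates, and the dotted line is the whole genome. Both panels divide by the whole length of a region, promoter windows included. The inside bar is the tallest of each cluster on the left, which on the right holds for Hoxb and Hoxd only: in Hoxa the 3′ flank is taller, and in Hoxc it is level with the inside bar.

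Within the clusters the peaks were not spread evenly. The interval between the starts of the 5′-most listed members was sparser than its cluster as a whole in all 4 clusters and both replicates. It held 6 and 6 peaks over 15.01 kb from Hoxa13 to Hoxa11 (0.3998 per kb in both replicates), and 29 and 31 over 77.2 kb from Hoxb13 to Hoxb9 (0.376 and 0.402 per kb). From Hoxc13 to Hoxc12 there were 3 and 4 peaks over 15.7 kb (0.192 and 0.256 per kb), and from Hoxd13 to Hoxd12 there were 1 and 2 over 6.70 kb (0.149 and 0.298 per kb). By the mean of both replicates the sparsest interval of all was the next of Hoxc, from Hoxc12 to Hoxc11, with 3 and 1 peaks over 17.7 kb. Immediately 3′ of it the interval from Hoxc11 to Hoxc10 held 18 and 19 peaks over 12.4 kb. Other dense intervals ran from Hoxb8 to Hoxb7, with 1.28 and 2.05 peaks per kb, and from Hoxb3 to Hoxb2, with 1.53 and 1.78. Sparse intervals were not confined to the 5′ end. There were 0.468 and 0.390 peaks per kb from Hoxa5 to Hoxa4, and 0.389 in both replicates from Hoxc5 to Hoxc4. From Hoxd10 to Hoxd9 there were 0.345 and 0.517.

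The longest stretch without a peak in either replicate was 17.9 kb, between Hoxb13 and Hoxb9 (chr11:96206071-96223940). In Hoxc it was 11.0 kb from 3′ of Hoxc12 to just past the Hoxc11 start (chr15:102943531-102954520), which contains Hotair, a long noncoding RNA transcribed against the Hoxc genes, and Hotair lacked a promoter peak in both. In Hoxd it was 8.39 kb between Hoxd3 and Hoxd1, and in Hoxa 5.39 kb between Hoxa4 and Hoxa5. Outside the clusters, the 50 kb that lie 50 to 100 kb 5′ of Hoxc held no peak in either replicate.

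The strongest shared site away from promoters in each cluster lay within a gene. In Hoxb it was an intron of Hoxb4 (chr11:96319301-96319470), 1118 bp from the nearest start, with 184 and 195, above the promoter peak of every Hoxb member in both replicates. The Hoxa site (chr6:52197401-52197550) had 122 and 134 and lay in an intron of the long Hoxa3 transcripts. In Hoxc it was 3002 bp from a start of Hoxc8, in an intron of a long Hoxc5 transcript (chr15:102987521-102987690), with 121 and 134. The Hoxd site (chr2:74686421-74686570) overlapped an exon of the long Hoxd11 and Gm28309 transcripts and had 112 and 136. The 2 next-ranking sites inside each cluster had signals between 66.9 and 145. In the flanks, the highest-ranking distal sites were at 147 and 126 on the 3′ side of Hoxc (chr15:103060381-103060530), 115 and 132 on the 3′ side of Hoxb (chr11:96413661-96413810), 80.4 and 102 in an intron of Skap2 on the 3′ side of Hoxa (chr6:52002861-52003010), and 72.3 and 87.4 on the 3′ side of Hoxd (chr2:74964461-74964610). In Hoxc the flank's strongest distal site was thus as strong as the strongest inside.

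Matches to CTCF letters were few inside the clusters, and the count depended on the letters used. CCANNAGNNGGC, searched on both strands in the central 150 bp, occurred in 6 of 261 shared sites inside (2.30%, exact 95% interval 0.848 to 4.94%), 14 of 280 in the flanks (5.00%, 2.76 to 8.25%) and 12705 of 197749 in the genome (6.42%). A shorter core, AGNNGGCGC, chosen after the sequences of strong sites had been seen, occurred in 16 sites inside (6.13%, 3.54 to 9.76%), 13 in the flanks (4.64%, 2.49 to 7.81%) and 4.03% of sites in the genome. With the shorter core the share inside was the higher, so no order of the 3 shares holds for both. Intervals cover counting error only. The 6 sites are shown because CTCF sites divide Hox clusters into domains. Each line gives 30 bases on the strand of the match, with the match in capitals. The match lay on the strand of the Hox genes in 5 of 6, and on the opposite strand in the site between Hoxd13 and Hoxd12.

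Hoxa7 upstream promoter site, chr6:52221800-52221829, − strand: aagaaaattCCAGGAGATGGCagtgtggct
Hoxa10 promoter site, chr6:52240532-52240561, − strand: tcgcagccgCCACGAGATGGCgcactcccg
Hoxb3 intron site, chr11:96344769-96344798, + strand: ccaaggcgcCCACAAGGCGGCctggagaca
Hoxc10 intron site, chr15:102969135-102969164, + strand: agactttgaCCAGAAGATGGCcgtggctgt
Hoxd13 to Hoxd12 site, chr2:74673169-74673198, − strand: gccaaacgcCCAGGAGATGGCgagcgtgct
Hoxd3os1 promoter site, chr2:74715912-74715941, + strand: gagctttgtCCAGGAGGAGGCgctgtagga

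The Hoxa10 promoter site had signals of 157 and 163 and the Hoxa7 upstream site 127 and 156. The Hoxd3os1 promoter site had 91.1 and 113, and the site between Hoxd13 and Hoxd12 had 58.1 and 84.2, next to the interval where Hoxd13 itself had no peak in replicate 1. The Hoxc10 intron site, at 34.7 and 30.8, and the Hoxb3 intron site, at 12.98 and 24.38, were weaker.

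Letters read by HOX proteins themselves were searched in the same way. TTTATNG, read by posterior HOX and by CDX proteins alike, so that the 2 families cannot be told apart, occurred in 25 of 142 promoter sites inside (17.6%, exact 95% interval 11.7 to 24.9%), 6 of 52 in the flanks (11.5%) and 4.28% of promoter sites in the genome. At distal sites it occurred in 14 of 119 inside (11.8%), 33 of 228 in the flanks (14.5%) and 9.94% in the genome. TGATTNAT, read by PBX with HOX, occurred in 18 of 261 sites inside (6.90%), 16 of 280 in the flanks (5.71%) and 3.90% in the genome. GGGCGG, the GC box read by SP factors, occurred in 25 of 142 promoter sites inside (17.6%, 11.7 to 24.9%), 15 of 52 in the flanks (28.8%) and 29.97% in the genome. The retinoic acid repeat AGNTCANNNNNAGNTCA occurred in 0 of 261 sites inside, which allows a share of up to 1.149%, and in 0.0946% of sites in the genome. A match is a description of letters, and no match says only that these letters are not in this window.

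The clusters hold 6 microRNA genes, which fall into families that share a seed. Their mature sequences (RefSeq, GRCm38.p6) are shown with the seed, bases 2 to 8, in capitals: miR-10a and miR-10b share ACCCUGU, and miR-196a and miR-196b share AGGUAGU.

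mmu-miR-10a-5p: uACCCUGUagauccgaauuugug
mmu-miR-10b-5p: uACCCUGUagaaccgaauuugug
mmu-miR-196a-5p: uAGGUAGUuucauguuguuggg
mmu-miR-196b-5p: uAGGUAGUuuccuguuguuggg
mmu-miR-615-3p: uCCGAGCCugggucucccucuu

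Mir10a, between Hoxb5 and Hoxb4, had no peak within 1 kb in either replicate, and Mir10b, 5′ of Hoxd4, had none in replicate 1 and 20.7 in replicate 2. Each member of the miR-196 family, which lies next to a group 9 gene and targets Hox mRNAs, did have a peak within 1 kb in both replicates. Mir196b had 74.0 and 85.1, Mir196a-1 had 45.2 and 46.3 and Mir196a-2 had 37.98 and 37.39. Mir615, in the Hoxc5 gene, had 88.6 and 85.3. These windows can overlap those of neighbouring Hox starts, as that of Mir615 does with Hoxc5.

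Among noncoding genes with a start inside the clusters, Gm15050 had 148 and 131 and Hoxb5os had 145 and 138. Haglr, a long noncoding RNA of the Hoxd cluster, had 85.4 and 84.7, and Hoxa11os, antisense to Hoxa11, had the Hoxa11 peak of 118 and 122 as its own strongest, so that the pair cannot be told apart. Hottip, a noncoding RNA that starts just 5′ of Hoxa13, had no peak in either replicate, as Hoxa13 itself.

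Partners and regulators of HOX proteins were measured for comparison with a list of 23 genes. Promoter peaks were found in both replicates for 20 of them, against 71.8% of all genes. Among the TALE cofactors, which bind DNA with HOX proteins, Pknox1 had 217 and 276, Meis1 had 159 and 163, and Meis3 had 42.0 and 42.9. The 6 chromatin regulators, including the Polycomb genes Ezh2 (169 and 187), Suz12 (218 and 233) and Eed (144 and 163), also had peaks in both. Among the ParaHox genes, relatives of the Hox genes outside the clusters, Cdx1 and Cdx4 had none in either replicate. Pdx1 had 9.73 in replicate 1 only, and Cdx2 had 9.92 and 10.8. These are the lowest of the listed ParaHox genes, and the others had a higher signal than Cdx2 in both replicates. Evx1, the homeobox gene 5′ of Hoxa, had 13.4 and 17.2, and Evx2, 5′ of Hoxd, had 17.3 and 20.6.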

How the data were processed

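DNase-seq peak lists of 2 replicates of 1 group, newborn B6NCrl mouse kidney, were used. Per the deposited descriptions of the samples, each list was made by the authors from an alignment of reads of 36 nt to mm10, 1 list per sample and none pooled. The deposited signal value of each peak and its −log10 p-value (at most 324) are the authors' own. The sources used here do not give the aligner, the peak caller, its threshold or the scaling, so depth is unknown and a missing peak can be a peak under the authors' threshold. The p-values were not used in any result.

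Gene starts came from GENCODE M21 and sequences from the RefSeq copy of GRCm38.p6. The strongest peak overlapping 1 kb to each side of any annotated start gave a gene its promoter signal, 0 without a peak. Percentiles were taken over 21938 protein-coding genes. Shared sites were merged peaks of both replicates that overlap by at least 1 bp, and motifs were searched on both strands in the central 150 bp. Intervals are exact binomial intervals at 95%, and a count of 0 was bounded by 3 counts; both cover counting error only. With 1 group, no test between groups was made, and each replicate's value or the mean ± SD is printed. Python 3.11.15, numpy 2.4.6, scipy 1.17.1, pandas 2.3.3 and matplotlib 3.10.9 were used, and the counting steps were tested on simulated peaks. All members, and the genes of each list that carry a result, are named. Some sequences and 1 gene of the partner list are not reported here. Members and lists were chosen with earlier results of these data known. The start nearest the start codon, the shorter CTCF core and the ATTGG arrangement were chosen after seeing the data.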

Additional observations from a re-analysis of the deposited data

How the results depend on the processing

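Among 52 recomputed values of 10 results, 33 stayed within the spread between replicates (a count within 1.5 times, a share within its interval) and 19 moved beyond it. The count of 35 members with a promoter peak in both replicates was the same under every alternative, except 37 without replicate 1. Median percentiles (anterior 65.8, central 74.3, posterior 55.4) depended on the starts counted: with only APPRIS principal starts they were 51.4 for anterior and 65.6 for central members, with only the start nearest the start codon (chosen after seeing the data) 49.3, 69.7 and 61.2, and with a window of 500 bp 69.1 for central members. The ratio of peak density inside over flanks, with only the upper 50% of peaks by signal, was 6.30 for Hoxa, 3.78 for Hoxb, 3.04 for Hoxc and 11.3 for Hoxd. With flanks of 100 kb it was 2.83 for Hoxa, 2.36 for Hoxc and 5.26 for Hoxd. Counting only peaks outside promoter windows, it was 0.884 for Hoxa, 1.46 for Hoxb, 1.41 for Hoxc and 2.75 for Hoxd. The divisor was still the whole length, promoter windows included. The Hoxa replicates then lay on either side of 1, at 0.739 and 1.03. The share of peaks inside found in both replicates was 81.0%, and 72.8% where at least 50% of the shorter peak had to overlap. The share of sites inside with CTCF letters was 2.30%, and 6.13% with the shorter core, chosen after seeing the data. For values not set by the alternative's own construction, the cause was not tested.

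No paired analysis was possible because the series holds 1 group. Without a replicate, the share found in both could not be computed. Depth is unknown, so the replicates' missing peaks at Hoxc12 and Hoxd13 cannot be set against it.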
